A study of Mus musculus with 4 samples.

Results

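The DNA methylation and demethylation enzymes are the 7 genes *Dnmt1*, *Uhrf1*, *Dnmt3a*, *Dnmt3b*, *Tet1*, *Tet2* and *Tet3*, taken by symbol from the 36144 rows of a gene count table from mouse colonic organoids. All 7 passed the filter of over 10 counts in 2 or more of the 4 libraries, as did 13979 genes in all, which are called tested here. The libraries were bulk poly-A RNA-seq of colon organoids at passage 3 from 1 male mouse aged 24 weeks, labelled WT, while the study describes its colonic organoids as carrying a Hes1-GFP reporter. Organoids were left untreated or received 2 mM sodium butyrate and were collected on day 2 (48 h) or day 3 (72 h), giving 4 conditions of 1 library. All cultures shared crypt medium with EGF, Noggin, R-spondin, the GSK3 inhibitor CHIR99021 and the ROCK inhibitor Y-27632, so the untreated organoids were also growing under continuous Wnt stimulation. With 1 library per condition there is no replicate check and no p-value. Each difference is therefore given with its 95% counting interval, which covers the sampling of reads in those libraries and not the variation between cultures or mice.

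DNA methylation in mammals is placed mainly on cytosines of CpG dinucleotides. DNMT3A and DNMT3B set new marks, whereas DNMT1 copies existing marks onto the new strand after replication, guided by UHRF1, which recognises hemimethylated CpG. TET1, TET2 and TET3 oxidise 5-methylcytosine with iron and 2-oxoglutarate, and the oxidised base is removed by TDG and base excision repair or diluted through replication. In the intestinal epithelium, *Dnmt1* and *Uhrf1* are known from dividing crypt cells, and TET enzymes from the demethylation of enhancers during differentiation. Butyrate, a short-chain fatty acid made by colonic bacteria, inhibits class I histone deacetylases and is taken up by colonocytes as fuel.

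Promoter sequences are shown for *Dnmt1* and *Uhrf1*, which act on the same newly replicated DNA, and for *Dnmt3b*, which had the largest difference at 72 h. The RefSeq table for GRCm38.p6 held 12 windows of 300 bases for the 7 genes, each from 250 bases before to 50 bases after an annotated transcription start. They were searched on both strands for TTTNNCGC, the letters of the E2F site class found in many S phase genes, printed here in capitals where matched. *Dnmt1* had 3 matches in window 3, chr9:20952574-20952873 on the minus strand. Of these, 2 overlap within the stretch GCGCGAAAAA, so the window shows 2 stretches in capitals. *Uhrf1* had 1 match in each of its 2 windows, chr17:56303087-56303386 and chr17:56304063-56304362 on the plus strand. The single *Dnmt3b* window, chr2:153649199-153649498 on the plus strand, had none. All are written 5′ to 3′ on the strand of the gene.
Dnmt1 window 3: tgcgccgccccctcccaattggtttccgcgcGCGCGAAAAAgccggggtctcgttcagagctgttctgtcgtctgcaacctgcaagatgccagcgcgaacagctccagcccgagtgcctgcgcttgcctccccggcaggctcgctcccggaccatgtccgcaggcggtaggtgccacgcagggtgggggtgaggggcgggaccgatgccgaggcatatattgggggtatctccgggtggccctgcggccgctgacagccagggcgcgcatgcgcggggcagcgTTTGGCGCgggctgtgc
Uhrf1 window 1: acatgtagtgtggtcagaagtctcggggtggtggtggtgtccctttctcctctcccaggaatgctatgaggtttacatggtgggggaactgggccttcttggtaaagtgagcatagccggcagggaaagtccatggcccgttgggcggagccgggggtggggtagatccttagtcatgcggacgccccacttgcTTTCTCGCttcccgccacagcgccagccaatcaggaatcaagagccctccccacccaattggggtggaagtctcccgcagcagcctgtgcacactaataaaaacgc
Uhrf1 window 2: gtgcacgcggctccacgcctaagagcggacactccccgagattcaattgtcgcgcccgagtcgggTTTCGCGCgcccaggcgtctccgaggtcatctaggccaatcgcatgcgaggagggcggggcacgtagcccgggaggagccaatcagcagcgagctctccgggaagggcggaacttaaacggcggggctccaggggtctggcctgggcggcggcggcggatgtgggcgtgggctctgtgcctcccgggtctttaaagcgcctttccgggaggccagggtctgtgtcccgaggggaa
Dnmt3b window 1: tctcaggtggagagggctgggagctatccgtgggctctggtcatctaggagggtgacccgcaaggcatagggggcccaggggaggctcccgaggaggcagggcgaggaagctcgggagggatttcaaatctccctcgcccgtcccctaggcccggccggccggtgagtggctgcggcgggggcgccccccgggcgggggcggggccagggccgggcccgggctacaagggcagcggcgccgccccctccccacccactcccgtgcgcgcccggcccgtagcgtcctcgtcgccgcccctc

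These letters were in 5.17% of all 32851 promoter windows of the table. The windows of *Dnmt3a*, *Tet1*, *Tet2* and *Tet3* did not contain them, nor did the other two windows of *Dnmt1*. A match is a description of the sequence, and no match says only that the letters are not in that window. CpG dinucleotides numbered from 2 in the first *Dnmt1* window to 57 in the *Tet2* window, against a median of 7 over all windows. The printed windows of *Dnmt1* and the second of *Uhrf1* held 33 each, that of *Dnmt3b* held 30 and the first of *Uhrf1* held 12.

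In the GENCODE M21 annotation of GRCm38, *Dnmt1* lies at chr9:20907209-20959888 (minus), *Uhrf1* at chr17:56303321-56323486 (plus), *Dnmt3a* at chr12:3806007-3914443 (plus) and *Dnmt3b* at chr2:153649450-153687730 (plus). *Tet1* lies at chr10:62804570-62908996, *Tet2* at chr3:133463679-133545139 and *Tet3* at chr6:83362373-83459084, all on the minus strand. Counts are for whole genes, so promoters and splice forms were not separated. Annotated antisense RNAs overlap some of these genes, and whether the counting used the strand is not given in the sources used here.

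Total counts ran from 20790225 to 24207840 per library, and mitochondrial transcripts took 14.1% to 18.4% of them. A count of 3, the limit that a count of 0 allows, corresponds to 0.124 to 0.144 CPM. The 9 epithelial markers, among them *Epcam*, *Cdh1*, *Krt8* and *Cdx2*, summed to between 145615 and 162185 normalised counts in each library. The summed markers of other cell types came to 15.1 to 21.8 for stroma, 32.7 to 56.3 for endothelium, 41.7 to 71.3 for immune cells and 41.7 to 77.8 for neurons and glia, with *Col3a1*, *Lum*, *Adgre1*, *Sox10* and *S100b* at 0 in all 4 libraries. Of 2 genes fixed as a check of the treatment, *H1f0*, a linker histone induced by deacetylase inhibition, counted 4959 untreated and 9611 with butyrate on day 2 (log2 fold change 0.78, 0.73 to 0.83), but 6675 and 6930 on day 3 (0.18, 0.13 to 0.23). *Cdkn1a*, the cell cycle inhibitor p21, behaved alike, at 0.96 and 0.19. The difference was thus smaller at 72 h in both genes. From 48 h to 72 h the untreated libraries were higher (0.38 for both genes) and the butyrate libraries lower (−0.22 for *H1f0* and −0.39 for *Cdkn1a*).

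Levels can be set side by side only per length, here as DESeq2-normalised counts per kb of exon, averaged over the 4 libraries. On this scale the maintenance pair stood highest, with *Uhrf1* at 691 (529 to 841) and *Dnmt1* at 625 (565 to 748). *Tet3* followed at 209 (194 to 216), ahead of *Dnmt3a* at 79.9 (67.9 to 91.6). *Tet2* was at 52.3 (36.3 to 66.5), *Dnmt3b* at 33.5 (18.6 to 46.7) and *Tet1* at 1.45 (0.926 to 1.76). The ranges of *Uhrf1* and *Dnmt1* overlapped, as did those of *Tet2* and *Dnmt3b*. These ranges run over 4 conditions and not over replicates, so an overlap does not show that the levels were equal. Within libraries, *Uhrf1* was above *Dnmt1* except in the untreated library at 72 h (529 against 565). *Tet2* was above *Dnmt3b* except in the butyrate library at 48 h (36.3 against 46.7). With the longest transcript as length the order of the averages was the same, but the ranges of *Tet2* (66.7 to 122) and *Dnmt3b* (21.9 to 55.2) no longer overlapped. Those of *Dnmt3a* (117 to 157) and *Tet2* did, although *Dnmt3a* was above *Tet2* in each library.

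**Figure D1:**
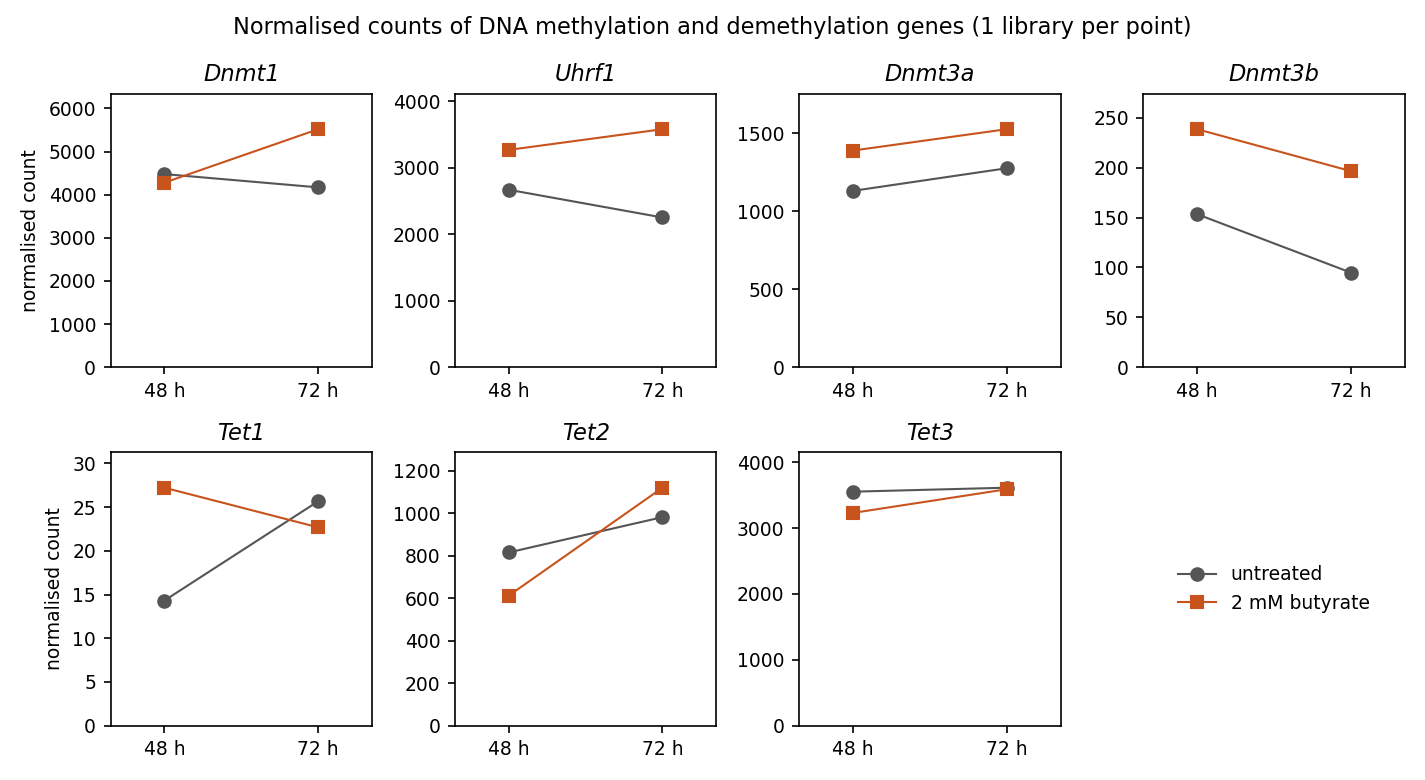
Normalised count (DESeq2 size factors, linear axis from 0) of each of the 7 genes at 48 h and 72 h, in untreated organoids (grey circles) and with 2 mM butyrate (orange squares); each point is 1 library and the lines join libraries of the same treatment. *Uhrf1*, *Dnmt3a* and *Dnmt3b* were higher with butyrate at both times, *Tet3* was nearly level, and *Dnmt1* and *Tet2* crossed between the times.

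The first question was how the maintenance enzymes stood in butyrate-treated against untreated organoids. *Dnmt1* counts at 48 h numbered 4379 untreated and 4717 with butyrate, while at 72 h they numbered 4223 and 5110. Scaled by size factors, these became 4478, 4280, 4170 and 5519 normalised counts, so that the butyrate library at 72 h was the highest and the other three lay close together. Butyrate over untreated gave a log2 fold change of −0.07 (−0.12 to −0.01) on day 2 and of 0.40 (0.35 to 0.46) on day 3, a 1.32-fold higher level at the later time. The difference between these changes, 72 h minus 48 h, was 0.47 (0.39 to 0.55). In bulk RNA, a change in the number of cells of one kind and a change of RNA per cell cannot be told apart.

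*Uhrf1*, the hemimethylated CpG reader, had 2612 counts untreated and 3605 treated on day 2, then 2282 untreated and 3317 treated on day 3. The normalised counts were 2671, 3271, 2253 and 3582. Both butyrate libraries were above both untreated ones. The 48 h log2 fold change of 0.29 (0.22 to 0.37) compared with 0.67 (0.59 to 0.75) at 72 h, where the 1.59-fold difference passed the 1.5-fold mark used here to call a gene. The response was larger at 72 h by 0.38 (0.27 to 0.48). *Uhrf1* also differed from its partner, since the ratio of *Uhrf1* to *Dnmt1* counts, which does not depend on library scaling, went from 0.596 to 0.764 at 48 h and from 0.540 to 0.649 at 72 h. On the log2 scale the ratio was higher by 0.36 (0.26 to 0.45) and by 0.26 (0.17 to 0.36).

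The de novo enzymes were the next comparison. *Dnmt3b* was counted 150 times untreated and 263 times with butyrate on day 2, against 96 and 182 times on day 3, or 153, 239, 94.8 and 197 normalised counts. Both butyrate libraries lay above both untreated libraries. Its log2 fold change of 0.63 (0.34 to 0.94), or 1.55-fold, at 48 h compared with 1.04 (0.69 to 1.42), or 2.06-fold, at 72 h, the largest difference of the 7 genes at that time. The lower end of the 48 h interval lies below the 1.5-fold mark (0.58 on the log2 scale), and the 2 responses differed by 0.41 (−0.05 to 0.87), an interval that includes 0. *Dnmt3c*, a close copy of *Dnmt3b* whose reads could be confused with it, had at most 1 count in any library.

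*Dnmt3a* had 1105, 1530, 1291 and 1412 counts in the untreated and butyrate libraries at 48 h and then at 72 h. Its normalised counts of 1130, 1388, 1275 and 1525 again put both butyrate libraries above both untreated ones. The log2 fold changes were 0.30 (0.18 to 0.41) and 0.26 (0.15 to 0.37), below the 1.5-fold mark, and the difference of −0.04 (−0.19 to 0.12) between the times had an interval that includes 0. The *Dnmt3b* to *Dnmt3a* ratio of counts on day 2 was 0.136 untreated against 0.172 treated, and on day 3 it was 0.0744 against 0.129. With butyrate it was higher by 0.34 (0.03 to 0.65) on the log2 scale on day 2 and by 0.79 (0.42 to 1.17) on day 3. Relative to *Dnmt3a*, *Dnmt3b* was thus higher in each butyrate library than in the untreated library of the same day. *Dnmt3l*, the catalytically inactive partner of these enzymes in germ cells, had at most 1 count.

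**Figure D2:**
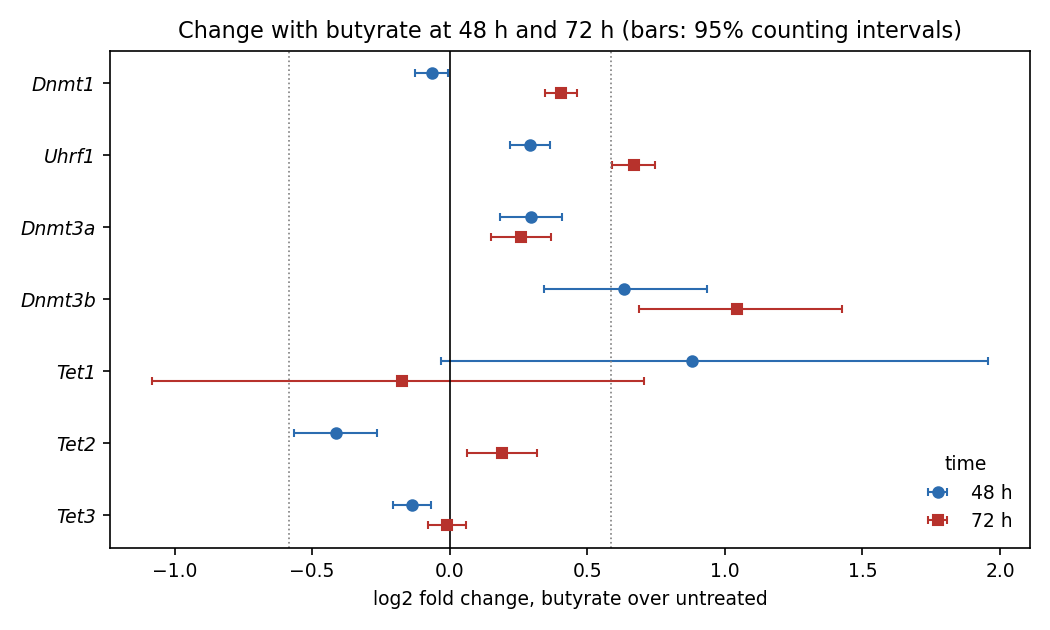
Log2 fold change of each gene, butyrate over untreated, at 48 h (blue circles) and 72 h (red squares); bars are 95% exact counting intervals and dotted lines mark 1.5-fold. *Dnmt3b* passed the mark at both times and *Uhrf1* at 72 h, *Dnmt1* and *Tet2* lay on opposite sides of 0 at the 2 times, and the interval of *Tet1* spans 0 at both.

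The TET genes came last. *Tet2* had 798, 675, 995 and 1038 counts, untreated first at each time, or 816, 612, 982 and 1121 normalised counts. The butyrate library was the lowest of the 4 at 48 h and the highest at 72 h. This gave log2 fold changes of −0.41 (−0.56 to −0.26) at 48 h and of 0.19 (0.06 to 0.32) at 72 h, neither of them 1.5-fold, and the 2 differed by 0.60 (0.41 to 0.80). The *Tet2* to *Tet3* ratio within libraries ran the same way, at 0.230 untreated against 0.190 treated on day 2, then 0.272 against 0.312 on day 3.

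*Tet3*, the most abundant TET gene in these organoids, had 3475, 3561, 3660 and 3324 counts, or 3553, 3231, 3614 and 3590 normalised counts. Only the butyrate library at 48 h stood apart, slightly below the others. *Tet3* had log2 fold changes of −0.14 (−0.21 to −0.07) on day 2 and −0.01 (−0.08 to 0.06) on day 3, and scaling to total counts turned the 72 h value to 0.04. The responses at the 2 times differed by 0.13 (0.03 to 0.22). *Tet1*, the TET gene of embryonic stem cells and early germ cells, had 14, 30, 26 and 21 counts. The untreated library at 48 h was the low one. Its log2 fold change of 0.88 at 48 h passed 1.5-fold, but the interval of −0.03 to 1.96 includes 0, as does that of the −0.17 (−1.08 to 0.71) at 72 h, so no difference in *Tet1* was detectable at this depth.

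Counted together, 2 of the 7 (*Dnmt3b* and *Tet1*) passed the 1.5-fold mark upwards at 48 h, against 13.1% of all tested genes, and 0 passed it downwards, against 8.9%. At 72 h, 2 of 7 were higher (*Uhrf1* and *Dnmt3b*), against 9.5%, and 0 were lower, against 8.53%. The median log2 fold change of the 7 was 0.29 at 48 h and 0.26 at 72 h, beside −0.01 and 0.00 over all tested genes. Without *Tet1* the medians were 0.11 and 0.33. *Dnmt3b* is the 1 gene in both counts, with 12.1% of tested genes at or above its change at 48 h and 4.23% at 72 h.

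**Figure D3:**
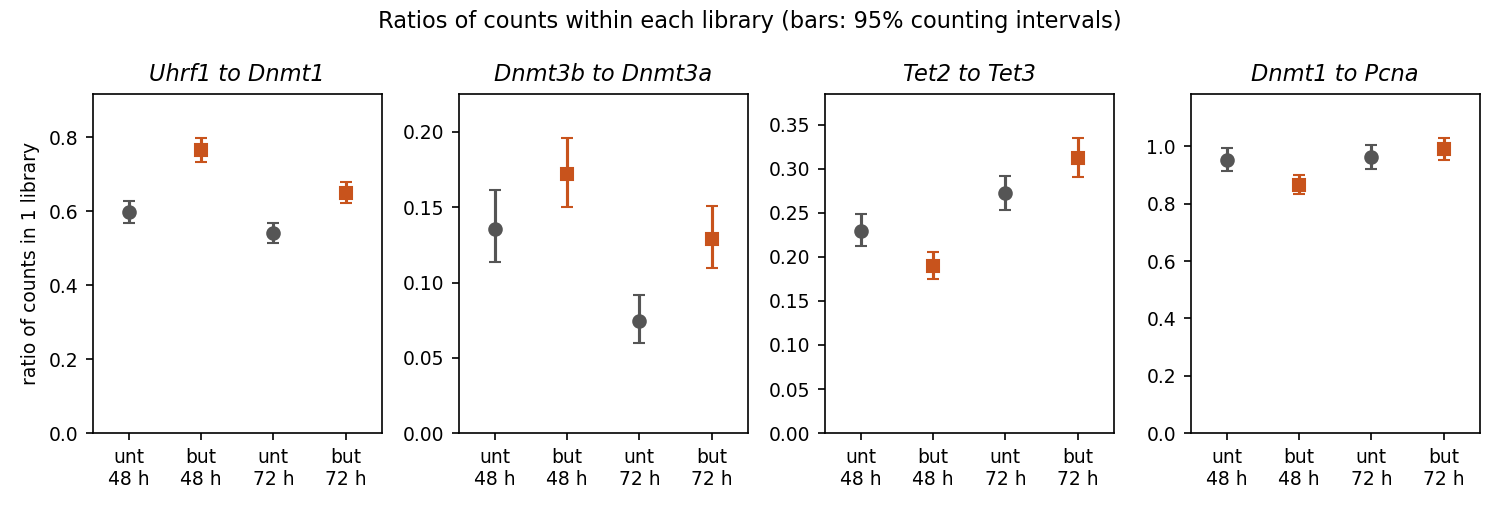
Ratio of the counts of 2 genes within each library (linear axes from 0), for untreated (grey circles) and butyrate (orange squares) organoids at 48 h and 72 h; bars are 95% counting intervals. The *Uhrf1* to *Dnmt1* and *Dnmt3b* to *Dnmt3a* ratios were higher with butyrate at both times, and *Tet2* to *Tet3* was lower at 48 h and higher at 72 h. *Dnmt1* to *Pcna* was lowest with butyrate at 48 h (0.867) and highest with butyrate at 72 h (0.991).

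The same 4 libraries also give the change from 48 h to 72 h within each treatment, and since each library enters 2 of the 4 comparisons these values are not independent of those with butyrate. Without treatment, *Dnmt3b* was lower at 72 h by 0.69 on the log2 scale (log2 fold change −0.69, −1.08 to −0.32), a 1.61-fold difference. It was the only 1 of the 7 past the mark downwards, against 5.17% of tested genes. *Tet1* was the only 1 upwards, at 0.80 (−0.15 to 1.89) on 14 and 26 counts, against 6.82%. *Uhrf1* was at −0.25 (−0.33 to −0.16), *Dnmt1* at −0.10 (−0.16 to −0.04), *Dnmt3a* at 0.17 (0.06 to 0.29) and *Tet2* at 0.27 (0.13 to 0.40). The untreated libraries of *Uhrf1* and *Dnmt3b* were thus lower at 72 h than at 48 h.

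With butyrate, *Tet2* was 1.83-fold higher at 72 h than at 48 h (log2 fold change 0.87, 0.73 to 1.01). It was the only 1 of the 7 past the mark, where 9.66% of tested genes were higher and 11.9% lower. *Dnmt1* was higher by 0.37 (0.31 to 0.42), *Tet3* by 0.15 (0.08 to 0.22), *Dnmt3a* by 0.14 (0.03 to 0.24) and *Uhrf1* by 0.13 (0.06 to 0.20). *Dnmt3b* was at −0.28 (−0.56 to −0.0015) and *Tet1* at −0.25 (−1.14 to 0.59). *Dnmt3b* was thus lower at 72 h than at 48 h in both treatments, while *Dnmt1* and *Uhrf1* were lower at 72 h untreated and higher with butyrate.

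Because *Dnmt1* and *Uhrf1* are transcribed mostly in dividing cells, replication and mitosis genes were set beside them. Of all tested genes, 48.7% had a log2 fold change with butyrate above 0 at 48 h, and 50.3% did at 72 h. The median log2 fold change of 24 S phase genes was 0.06 at 48 h, with 16 of 24 above 0, and 0.33 at 72 h, with 23 of 24 above 0. At 48 h *Dnmt1* was at −0.12 relative to that median, with 19 of the 24 at or above it, while 6 of the 24 reached *Uhrf1* and 1 reached *Dnmt3b*. *Dnmt1* was above the median at 72 h by 0.07, and 7 of the 24 were at or above it. *Uhrf1* was above by 0.34 and *Dnmt3b* by 0.71, and 0 of the 24 S phase genes reached either of them. *Dnmt3a* was at −0.08 and *Tet2* at −0.14 relative to the S phase median at 72 h, below it although both were higher with butyrate, and *Tet3* was at −0.34. The 14 mitosis genes had medians of −0.10 and 0.20. Within libraries, the ratio of *Dnmt1* to *Pcna*, the replication clamp, was 0.953 untreated against 0.867 treated on day 2, then 0.963 against 0.991 on day 3. The log2 difference was −0.14 (−0.22 to −0.05) on day 2 and 0.04 on day 3, where the interval (−0.04 to 0.12) includes 0. *Uhrf1* to *Pcna* was 0.569 against 0.663, then 0.520 against 0.643, higher with butyrate by 0.22 (0.13 to 0.31) and 0.31 (0.21 to 0.40). Against the proliferation marker *Mki67*, the *Uhrf1* ratio was higher by 0.24 (0.16 to 0.32) and 0.21 (0.13 to 0.30), while the *Dnmt1* ratio was at −0.12 (−0.19 to −0.05) and −0.05 (−0.12 to 0.02). What part the share of dividing cells had in the *Dnmt1* and *Uhrf1* values was not tested. Among the 9 epithelial markers, 5 were higher with butyrate at 48 h (median 0.07) and 8 were lower at 72 h (median −0.17). *Krt20*, a keratin of differentiated colonocytes, was the highest of them at 48 h, at 0.31, and the lowest at 72 h, at −0.74.

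Of the 9 maintenance partners tested, 6 were below 0 at 48 h (median −0.06) and 9 were above 0 at 72 h (median 0.36). Above 0 were 48.7% of all tested genes at 48 h and 50.3% at 72 h. *Pcna* belongs to this list and to the S phase list. *Hells*, the remodeller that opens chromatin for methylation, was at 0.06 (−0.02 to 0.15) and 0.41 (0.32 to 0.50), and its activator *Cdca7* at −0.15 (−0.23 to −0.07) and 0.43 (0.33 to 0.52). *Lig1*, the replicative ligase whose methylated form is bound by UHRF1, was at −0.39 (−0.48 to −0.30) and 0.29 (0.21 to 0.37). *Cdca7l* was the 1 partner of 9 past 1.5-fold, against 9.5% of all tested genes, at 0.71 (0.54 to 0.88) at 72 h after 0.55 (0.39 to 0.70) at 48 h. *Usp7*, which stabilises DNMT1 and UHRF1, was nearly level at −0.14 (−0.20 to −0.08) and 0.06 (0.01 to 0.12).

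Over 8 tested de novo partners and relatives, the median was −0.16 on day 2 and 0.14 on day 3. *Trdmt1*, the DNMT family member that methylates tRNA, had 71 counts untreated and 182 treated on day 2, against 72 and 94 on day 3, or log2 fold changes of 1.17 (0.78 to 1.60) and 0.51 (0.06 to 0.98). *Zfp57*, which protects methylation at imprinted regions, was at 0.75 (0.43 to 1.07) and 0.44 (0.14 to 0.74). These were the only genes of the 8 past 1.5-fold, both higher at 48 h, against 13.1% of all tested genes. *Trim28*, the corepressor recruited by ZFP57, was at −0.25 (−0.30 to −0.19) and 0.23 (0.18 to 0.29). The histone H3 lysine 9 methyltransferases *Ehmt1* and *Ehmt2* were at −0.35 (−0.44 to −0.26) and −0.34 (−0.41 to −0.26) at 48 h, and at 0.05 (−0.04 to 0.13) and −0.03 (−0.11 to 0.04) at 72 h, where both intervals include 0.

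**Figure D4:**
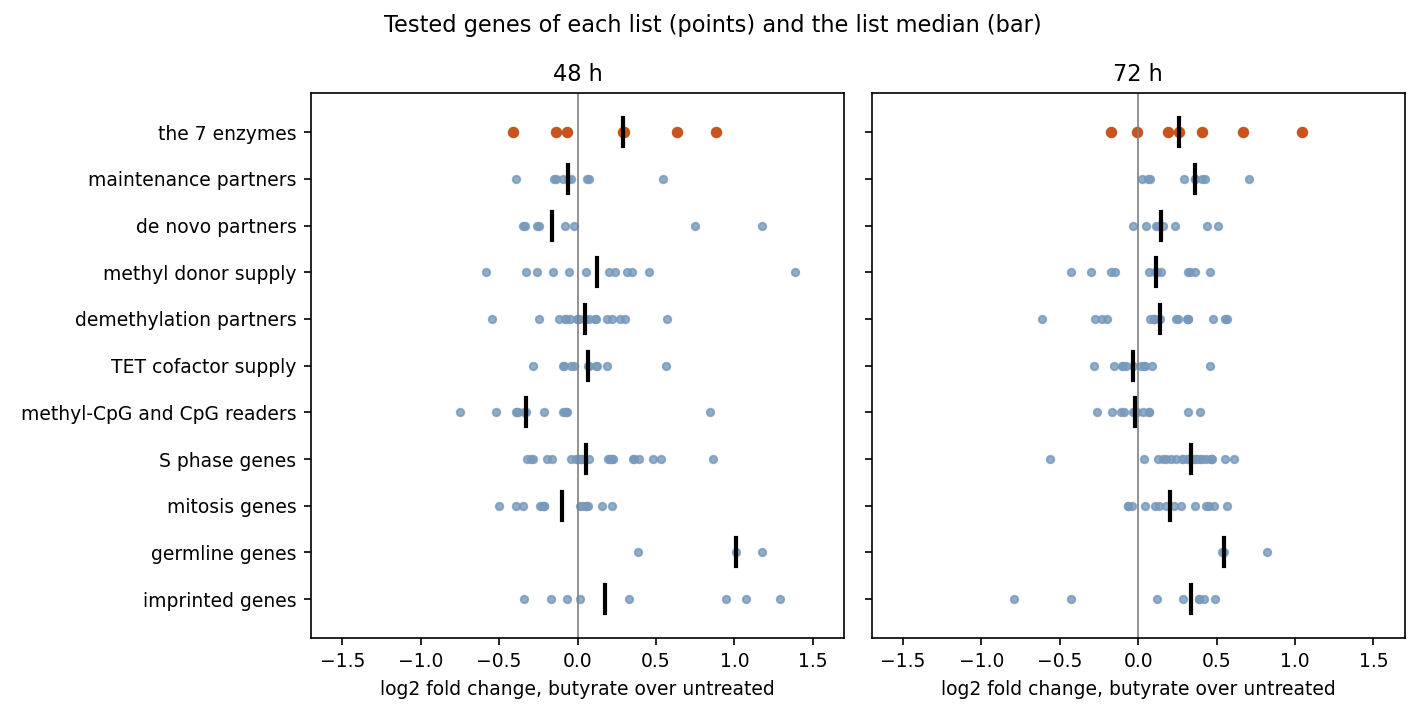
Log2 fold change, butyrate over untreated, of each tested gene in 10 companion lists (blue points) and of the 7 enzymes (orange points) at 48 h and 72 h; black bars are medians. The S phase and maintenance partner lists lay around 0 at 48 h and mostly above 0 at 72 h, whereas 12 of the 13 readers lay below 0 at 48 h and 8 of 13 at 72 h.

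On the erasing side, the 19 tested demethylation partners had medians of 0.05 and 0.14. *Tdg*, the glycosylase that excises the oxidised bases made by TET enzymes, was at 0.11 (0.04 to 0.18) and 0.10 (0.02 to 0.17). *Ogt*, a binding partner of TET2 and TET3, was at −0.12 (−0.17 to −0.07) and 0.32 (0.26 to 0.37). *Cxxc5*, a CXXC protein that binds TET2, was at 0.07 (−0.11 to 0.25) and 0.57 (0.38 to 0.76). *Cxxc4*, its relative, was the only gene of the 19 past 1.5-fold, at 72 h and downwards, against 8.53% of all tested genes. It was at 0.57 (−0.05 to 1.23) at 48 h on 35 and 59 counts and at −0.61 (−1.22 to −0.04) at 72 h on 69 and 41 counts. Of 11 genes of the metabolism around 2-oxoglutarate, the TET cosubstrate, and of its competitors succinate, fumarate and 2-hydroxyglutarate, 0 passed 1.5-fold at either time, where 13.1% of all tested genes were higher and 8.9% lower at 48 h, and 9.5% and 8.53% at 72 h. *Idh2*, which makes 2-oxoglutarate in mitochondria, was the highest at 0.57 (0.50 to 0.63) and 0.46 (0.39 to 0.53).

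The supply of S-adenosylmethionine, the methyl donor, had medians of 0.13 and 0.11 over 12 tested genes. *Mat2a*, the synthase of extrahepatic tissue, was at 0.31 (0.27 to 0.36) and 0.07 (0.02 to 0.12), and *Ahcy*, which removes the product inhibitor S-adenosylhomocysteine, at 0.35 (0.30 to 0.40) and 0.32 (0.27 to 0.37). *Mtr*, methionine synthase, changed sides from −0.58 (−0.76 to −0.41) to 0.33 (0.16 to 0.50). *Gnmt* was the only gene of the 12 past 1.5-fold, against 13.1% of all tested genes, at 1.39 (0.58 to 2.39) at 48 h on 15 and 46 counts. *Mtr* fell just short of the mark downwards at 48 h, so a small shift in scaling could change this count.

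Of the 13 readers of CpG, 12 were below 0 at 48 h with a median of −0.33, where 48.7% of all tested genes were above 0. At 72 h, 8 of 13 were below 0 and the median was −0.02, where 50.3% of all tested genes were above 0. *Zbtb38*, a zinc finger reader, was at −0.75 (−0.87 to −0.64) at 48 h and −0.03 (−0.14 to 0.08) at 72 h, and *Cxxc1*, which binds unmethylated CpG, at −0.52 (−0.62 to −0.41) and −0.11 (−0.21 to −0.01). *Zbtb4* was the exception, at 0.84 (0.65 to 1.05) and 0.39 (0.19 to 0.60).

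Germline and imprinted genes, whose silencing depends on DNA methylation in somatic cells, were read as a further set. Of 19 germline genes, 9 were at 0 in every library and 3 were tested. *Tdrd1* had 89 counts untreated and 203 treated on day 2, against 85 and 114 on day 3, at 1.01 (0.65 to 1.39) and 0.55 (0.13 to 0.98). *Brdt* was at 1.17 (0.31 to 2.23) on 14 and 37 counts at 48 h and at 0.82 (−0.11 to 1.90) on 15 and 25 counts at 72 h, and *Ddx4* had at most 18 counts. *Dazl* had at most 3 counts, and *Sycp1*, *Mael* and *Hormad1* had 0. Of 8 tested imprinted genes, 3 were at least 1.5-fold higher at 48 h, against 13.1% of all tested genes, and 0 at 72 h, against 9.5%. The 3 were *Cdkn1c* at 1.29 (0.99 to 1.61), *Igf2* at 1.07 (0.16 to 2.18) on 13 and 32 counts, and *Snrpn* at 0.95 (0.79 to 1.11). At 72 h *Snrpn* was at 0.49 (0.32 to 0.66), *Cdkn1c* at −0.43 (−0.72 to −0.15) and *Plagl1* at −0.79 (−1.07 to −0.52). *Plagl1* was the only 1 of the 8 past 1.5-fold downwards at 72 h, against 8.53% of all tested genes. At 48 h 0 were, against 8.9%. No methylation was measured in these libraries, so none of these transcript values is a methylation level.

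Likeness of pattern was measured as the Euclidean distance between log2 normalised counts centred on their mean over the 4 libraries, among the 10788 genes (10789 for *Tet1*) whose normalised counts averaged 100 or more. The nearest genes were *Alg13* (0.022) and *Timeless* (0.043) for *Dnmt1*, *Muc4* (0.058) and *Ror2* (0.063) for *Uhrf1*, and *Zfp608* (0.038) and *Rpap2* (0.041) for *Dnmt3a*. For *Dnmt3b* they were *Dync2li1* (0.120) and *Pla2g15* (0.169), for *Tet2* *Tanc2* (0.032) and *Ppp2r3d* (0.046), and for *Tet3* CAAA01147332.1 (0.013) and *Aim2* (0.025). *Tet1* had *Tmod2* (0.107) and *Oas1g* (0.125) at its side, on counts too low to fix its pattern. Among the 7 themselves, *Dnmt1* and *Dnmt3a* were closest (0.277) and *Dnmt3b* and *Tet2* farthest apart (1.42). *Dnmt1* stood 0.367 from *Uhrf1* and 0.910 from *Dnmt3b*. With 4 libraries, such distances describe these libraries only.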

How the data were processed

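Poly-A RNA from 4 organoid cultures was sequenced by the authors. According to the methods and processing notes, transcripts were quantified with kallisto 0.44.0 (GRCm38.p6) and gathered per gene by tximport. The deposited values are whole-number gene counts, taken here as rounded estimated counts. Groups came from the sample titles, and all columns were mapped. Symbols were used as deposited: 26 names are date-like, and 2 are listed 2 times, none of them a member.

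The study's own filter (over 10 counts in 2 or more libraries) defined the tested genes. DESeq2 1.42.0 (R 4.3.3) gave the size factors only, as 1 library per condition leaves its test without replicates. A log2 fold change is the difference of log2(normalised count + 1). Its interval is the 95% exact (Clopper-Pearson) binomial interval on the pair of counts, rescaled, and covers counting error only. A ratio within a library has an exact interval of the same kind, and intervals of differences between ratios or between changes are normal approximations on the log scale, also for counting error. At least 1.5-fold was called. The procedure was tested on simulated counts. Named genes are the 7 enzymes, members of the lists and the 2 nearest patterns for each. The members and the 16 gene lists were chosen with earlier results of these data known. Lengths came from GENCODE M21 and promoters from RefSeq.

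The alternatives tried were TMM (edgeR 4.0.16), total count and nuclear-gene scaling, a pseudocount of 5, other filters, thinning to the smallest library, a 2-fold mark, longest transcripts and shorter lists. Of the listed genes, 3 imprinted RNAs were not analysed here.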

Additional observations from a re-analysis of the deposited data

Results flagged for a closer look

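*Dnmt1* and *Tet2* lay on opposite sides of 0 at the 2 times, with counting intervals that exclude 0 at both. *Dnmt1* had a log2 fold change with butyrate of −0.0652 at 48 h and 0.404 at 72 h. *Tet2* had −0.413 at 48 h and 0.190 at 72 h. With 1 library per condition, the difference between the times was not tested against the variation between cultures. The 48 h interval of *Dnmt1* ends at −0.0056 and includes 0 under total count scaling, with an upper end of 0.00032.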

How the results depend on the processing

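The labels give no replicate numbers shared between conditions, each of which is 1 library, and no paired analysis was run. A fit of treatment plus day, whose error would be the difference between the days, was not run. Member changes were recomputed 204 times in all, of which 196 stayed inside the counting interval of the reported value, and 8 moved outside it. The 204 include the other filters, under which the value of a member cannot move, so the 196 overstate how many alternatives could have differed. A sign changed in 3 of the 204, namely *Tet3* at 72 h and *Tet3* over time untreated under total count scaling and *Dnmt1* over time untreated relative to S phase. Under TMM, total count and nuclear-gene scaling, a pseudocount of 5 and thinning, no count of members past the mark moved. With a minimum of 50 for the mean normalised count, which removes *Tet1*, the number of members at least 1.5-fold higher was 1 at 48 h, with a median of 0.11, and 0 for 72 h over 48 h untreated. With a 2-fold mark, it was 0 higher at 48 h, 1 higher at 72 h (*Dnmt3b*), 0 higher and 0 lower over time untreated, and 0 higher over time with butyrate. Total count scaling moved *Dnmt1* over time untreated to −0.18 and *Tet3* from 0.02 to −0.05, and *Tet3* with butyrate at 72 h from −0.01 to 0.04. It also made the counting intervals of *Dnmt1* at 48 h and of *Dnmt3a* over time in both treatments include 0, and TMM did so for *Dnmt3b* over time with butyrate. Shares of all tested genes past 1.5-fold also moved. With the mean of at least 50 they were 5.87% higher and 5.13% lower at 72 h, and 3.08% and 3.31% over time untreated. Over all genes with at least 1 count they were 21.0% and 14.9% at 48 h, 15.8% and 17.2% at 72 h, 15.4% and 12.6% over time untreated, and 15.7% and 20.6% over time with butyrate. Of 348 medians of lists and of all genes, 346 stayed inside a band around the reported value, and 10 changed sign. For a list the band was as wide as the typical counting interval of a single gene in it. For all genes it had a fixed width, so neither band is the error of a median. Searching for nearest patterns among genes with a mean of at least 500 kept 7 of 14. Taken relative to the S phase median, an alternative chosen after seeing the data, *Dnmt1* was at 0.07, *Uhrf1* at 0.34, *Dnmt3a* at −0.08 and *Tet2* at −0.14 at 72 h (the last pair is not among the 204), and the untreated time change of *Dnmt1* went from −0.10 to 0.00499. Adding *Dnmt3c* to *Dnmt3b*, also chosen after seeing the data, left all 4 *Dnmt3b* values inside their intervals. Depth limits *Tet1*, *Brdt*, *Igf2* and *Gnmt*, each under 50 counts. The libraries come from 1 mouse and 1 culture per condition, so condition and culture cannot be told apart.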
